A study of Mus musculus with 20 samples.

Results

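The transcripts of 7 genes of the MHC class II presentation pathway were followed in mouse bone marrow-derived macrophages, through 16 h of lipopolysaccharide (LPS) and in parallel cultures without it. The genes are H2-Aa, H2-Ab1 and H2-Eb1 (antigen-presenting chains), Cd74 (the invariant chain), H2-DMa and H2-DMb1 (the peptide-exchange dimer) and Ciita (the transcriptional coactivator of the pathway). They were chosen by name: each non-control array probe whose gene name was one of these 7 was taken, which gave 8 of 39429 probes. All 7 genes passed the filter on dim probes, and they are 7 of the 22035 genes kept for the tests, of 30119 gene names on the array. The cells came from C57BL/6 mice of 4 genotypes, labelled wild type, TRIF -/- KO, MyD88 -/- KO and MyD88/Trif -/- double KO; here the first is called wild-type, the second TRIF-KO-labelled, the third MyD88-KO and the last double-KO. Bone marrow was cultured for 6 days with conditioned medium of an L929 line that secretes M-CSF, and the replated macrophages then spent 1, 2, 4, 8 or 16 h without serum, either with LPS of Salmonella at 200 ng/mL or with no addition. Each of the 20 arrays compared LPS-treated with untreated cells of 1 genotype and 1 time in 2 colours, so each genotype had 5 arrays, 1 per time point. The labels do not say how many animals gave the marrow or whether time points came from separate cultures, and p-values therefore measure the spread between these arrays.

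MHC class II molecules are pairs of an alpha and a beta chain that carry peptides from endosomes to the cell surface, where CD4+ T cells read them. H2-Aa and H2-Ab1 encode the pair of I-A. H2-Eb1 encodes the beta chain of I-E, whose alpha chain is not made in the C57BL/6 strain. Cd74 fills the groove of new class II molecules and guides them to endosomes, and the H2-DM dimer then exchanges its remnant for peptide. Ciita does not bind DNA itself. It docks onto a complex of RFX, CREB and NF-Y proteins at class II promoters, and in macrophages it is known above all as a target of interferon gamma. TRIF and MyD88 are the adapters through which the LPS receptor TLR4 signals, so the design asks which adapter a response runs through.

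Class II promoters are known for an X box, bound by RFX, followed at a fixed distance by a Y box, the NF-Y site read as ATTGG. RefSeq promoter windows (build GRCm38.p6) were found for 4 of the 7 genes: H2-Aa, H2-Eb1, H2-DMb1 and H2-DMa, the last with 2 start sites. There were none for H2-Ab1, Cd74 and Ciita. The 250 bases before the start are shown for the 3 genes in which GNAACT, letters at the start of the X box, preceded ATTGG on the strand of the gene, because the same layout stands before genes whose levels differed in course. Capitals mark the GNAACT and the ATTGG, and each sequence runs 5′ to 3′ on the strand of the gene (chr17:34287824-34288073, minus strand; chr17:34305617-34305866, plus strand; chr17:34152941-34153190, plus strand).
H2-Aa: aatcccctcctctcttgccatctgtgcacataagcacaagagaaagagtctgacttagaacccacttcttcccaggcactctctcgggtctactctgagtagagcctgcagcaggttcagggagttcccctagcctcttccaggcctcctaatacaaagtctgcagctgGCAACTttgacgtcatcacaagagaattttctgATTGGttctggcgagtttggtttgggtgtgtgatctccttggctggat
H2-Eb1: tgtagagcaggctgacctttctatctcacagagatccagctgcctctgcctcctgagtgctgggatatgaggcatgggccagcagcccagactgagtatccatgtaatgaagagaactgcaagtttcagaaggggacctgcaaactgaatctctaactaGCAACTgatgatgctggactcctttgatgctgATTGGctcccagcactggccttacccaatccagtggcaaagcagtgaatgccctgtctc
H2-DMb1: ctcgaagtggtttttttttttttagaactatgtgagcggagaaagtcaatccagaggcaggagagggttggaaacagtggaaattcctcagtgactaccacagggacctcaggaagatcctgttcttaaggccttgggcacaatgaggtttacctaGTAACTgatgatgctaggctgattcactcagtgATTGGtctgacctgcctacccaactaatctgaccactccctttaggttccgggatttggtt
The ATTGG followed the GNAACT after 27 bases in H2-Aa, after 26 in H2-Eb1 and after 27 in H2-DMb1. Neither window of H2-DMa held the pair. Searched on both strands with 10 to 45 bases between them, the pair was present in 455 of 32851 promoter windows of this length (1.39%), whereas GNAACT alone was present in 37.3% and ATTGG alone in 33.8%. The letters and the spacing were chosen after these promoters had been read, and a match is a description of the sequence only.

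The probes lay on chromosome 17 in the order H2-DMa, H2-DMb1, H2-Ab1, H2-Aa and H2-Eb1 (mm9, chr17:34274300-34453134). That of Cd74 lay on chromosome 18 (mm9, chr18:60972075-60972132) and that of Ciita on chromosome 16 (mm9, chr16:10526568-10526627). The position of the probes within exons was not annotated here. H2-Ab1 had 2 overlapping probes (mm9, chr17:34406296-34406355 and chr17:34406305-34406363), and the brighter one represents the gene. All 8 probes were well above background in both channels on each array on which they were read, and none was saturated. Cd74 has no value on the wild-type array of 2 h, where the scanner software flagged its spot as an outlier. The Ciita probe has a low-complexity sequence, with 65.0% A and 8 copies of AAAAC among 60 bases, against 25.0% to 36.7% A in the other 7 probes; its part in the Ciita values was not tested.

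Cells of each genotype had the markers of macrophages, with 9 of 9 above background on each array used for untreated levels. The summed level of 9 B-cell markers lay between 11.1 and 11.6 (log2), that of 9 T- or NK-cell markers between 11.4 and 11.9 and that of 10 dendritic-cell markers between 17.1 and 17.5. Each sum is of linear intensities, so the brightest markers set it. In the dendritic-cell sum Siglech averaged 17.12 to 17.26 by genotype, while Zbtb46 averaged 7.20 to 8.14. Ebf1 and Ifng were above background on none of these arrays, whereas Cd79b, Cd22, Cd4, Lck and Cd3e were on each. Neutrophil markers stood apart in MyD88-KO cells, with a summed level of 16.7 to 17.0 against 15.2 to 16.0 in the other genotypes. Of these markers S100a9 alone averaged 16.48 in MyD88-KO cells. The Y-linked Eif2s3y was bright in TRIF-KO-labelled cells (14.2 ± 0.24, SD, n = 5) and double-KO cells (14.2 ± 0.19) and dim in wild-type (6.50 ± 0.065) and MyD88-KO cells (6.57 ± 0.072), so the groups differ in sex. Ticam1, the gene of TRIF, measured 7.28 ± 0.044 in double-KO cells but 10.8 ± 0.28 in cells labelled TRIF-KO and 10.6 ± 0.19 in wild-type cells, so the transcript does not bear out the TRIF-KO label, and these cells are named by their label throughout (TRIF-KO alone in the names of differences). The Ticam1 probe lay on chromosome 17 (mm9, chr17:56409265-56409324), the chromosome of H2-DMa, H2-DMb1, H2-Ab1, H2-Aa and H2-Eb1. A part of this shared chromosome in the double-KO values was not tested. Myd88 was bright in all groups. The labels do not name the alleles, and a probe outside the altered part checks nothing. The double-KO arrays were all scanned on day 2 and the wild-type arrays all on day 1, while MyD88-KO arrays fell on both days.

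Untreated double-KO macrophages had less mRNA of H2-Aa, H2-Ab1, H2-Eb1 and Cd74 than untreated cells of the other 3 genotypes. The gap was widest in the first hours. Averaged over time, H2-Aa was lower than in wild-type by 1.37 on the log2 scale, Cd74 by 1.36, H2-Eb1 by 1.14 and H2-Ab1 by 0.97, which are 2.58-fold, 2.57-fold, 2.20-fold and 1.97-fold differences. H2-DMa was lower by 0.38. The other members, H2-DMb1 and Ciita, did not pass the test. In bulk samples like these, fewer cells that express a gene and less RNA in each cell cannot be told apart.

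Levels are given as normalized log2 intensities of the untreated channel. H2-Aa, the alpha chain of I-A, measured 10.49, 10.15, 10.19, 10.72 and 11.78 in wild-type cells at 1, 2, 4, 8 and 16 h. In double-KO cells it measured 8.69, 8.59, 8.80, 9.34 and 11.09. The double-KO value was the lower one at each time, by 3.49-fold at 1 h and 1.62-fold at 16 h, and TRIF-KO-labelled (9.91 to 11.70) and MyD88-KO cells (9.91 to 11.68) kept close to wild-type. H2-Ab1, its beta chain partner, measured 14.67, 14.55, 14.68, 15.04 and 15.77 in wild-type cells. In double-KO cells it was 13.08, 13.21, 13.23, 14.38 and 15.93, so the groups were apart up to 8 h and level at 16 h. The second H2-Ab1 probe had group means of 14.85 ± 0.65 in wild-type and 13.79 ± 1.21 in double-KO cells (SD, n = 5), close to those of the first (14.94 ± 0.50 and 13.96 ± 1.22).

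H2-Eb1, the beta chain of I-E, measured 14.51, 14.38, 14.18, 14.57 and 15.62 in wild-type cells. It measured 12.77, 12.90, 12.67, 13.65 and 15.59 in double-KO cells, again low until 8 h and level with wild-type at 16 h. Cd74 measured 14.03, 14.16, 14.47 and 15.60 in wild-type cells at 1, 4, 8 and 16 h. In double-KO cells it was 12.18, 12.10, 12.32, 13.48 and 14.94 from 1 to 16 h. The double-KO value was the lower one at each time with both values, by 3.60-fold at 1 h.

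**Figure D1:**
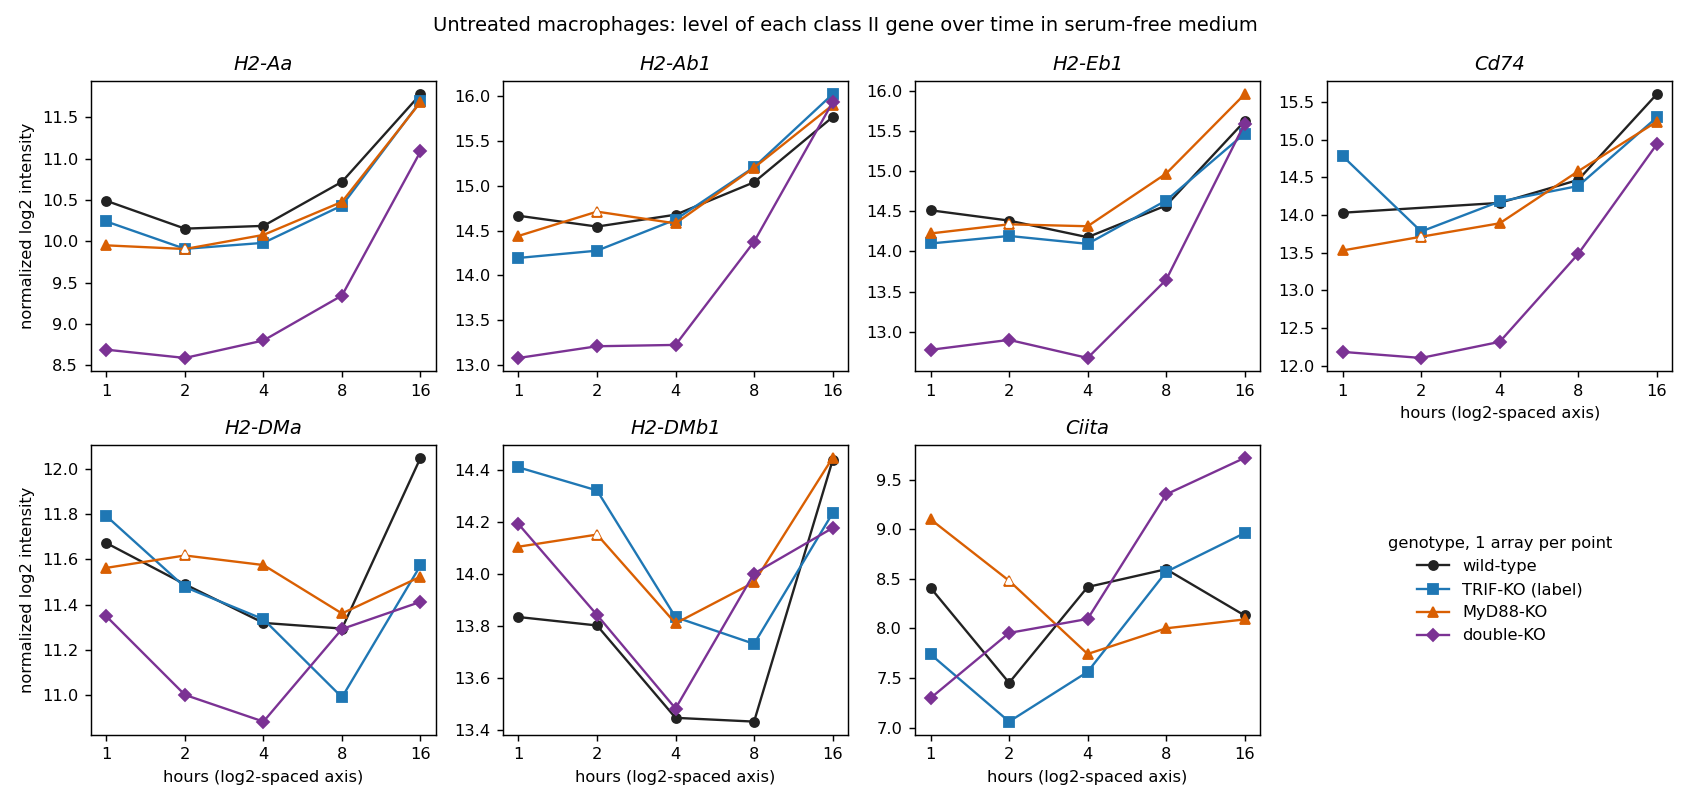
Normalized log2 intensity of the untreated channel (vertical axis, a separate scale in each panel) against hours in serum-free medium for the 7 genes, 1 array per point and 1 line per genotype; the open MyD88-KO symbol at 2 h was read in Cy5 and is not in the fits. Double-KO values of H2-Aa, H2-Ab1, H2-Eb1 and Cd74 lie below those of the other genotypes from 1 to 8 h, and H2-Ab1 and H2-Eb1 reach 15.93 and 15.59 at 16 h.

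A fit of all genes with limma, with time point as a block, put 5 of the 7 members lower in untreated double-KO than in wild-type cells and none higher, where 10.6% of all genes were called lower and 26.1% in either direction. Adjusted p-values were 2.0e-06 for H2-Aa (SE 0.12, lower at 5 of 5 times), 6.7e-04 for H2-Eb1 (SE 0.19, 5 of 5), 0.0018 for Cd74 (SE 0.26, 4 of 4) and 0.0021 for H2-Ab1 (SE 0.19, 4 of 5). H2-DMa had 0.033 (SE 0.12, 5 of 5) and lost its call in 7 of 10 fits that left out 1 array. In the same fit no member was called between TRIF-KO-labelled and wild-type, where 0.440% of genes were, or between MyD88-KO and wild-type, where 10.0% were. For H2-Aa these differences were -0.21 ± 0.12 (SE) and -0.27 ± 0.13. None of the 5 calls remained without the time block, when H2-Aa had an adjusted p of 0.079, or with slide as a fixed block, when it had 0.10 at a difference of -1.40. With scan day as a block H2-Aa kept its call (-1.52, adjusted p = 0.0083) and the others did not.

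H2-Aa, H2-Ab1, H2-Eb1 and Cd74 were also higher in untreated TRIF-KO-labelled than in double-KO cells (background 9.71% of genes higher) and in untreated MyD88-KO than in double-KO cells (3.86%), comparisons that share the double-KO arrays with that against wild-type. The TRIF-KO-labelled differences were 1.15 ± 0.12 for H2-Aa, 0.90 ± 0.19 for H2-Ab1, 0.98 ± 0.19 for H2-Eb1 and 1.48 ± 0.24 for Cd74, with adjusted p-values of 1.0e-05, 0.0036, 0.0020 and 5.3e-04. TRIF-KO-labelled and double-KO cells shared the bright Eif2s3y signal. The MyD88-KO differences were 1.10 ± 0.13, 0.92 ± 0.21, 1.25 ± 0.21 and 1.11 ± 0.26 for the same genes, with adjusted p-values of 7.1e-05, 0.013, 0.0015 and 0.018. H2-Ab1 and Cd74 each lost this call in 3 of 9 fits that left out 1 array: those without MyD88-KO of 4 or 8 h or double-KO of 4 h, with adjusted p-values up to 0.061 and 0.081. Among arrays of scan day 2 alone, double-KO minus MyD88-KO was -1.28 for H2-Aa at 4 h, -1.13 at 8 h and -0.60 at 16 h. The same differences for H2-Eb1 were -1.64, -1.32 and -0.37, for Cd74 -1.57, -1.10 and -0.30, and for H2-Ab1 -1.36, -0.83 and 0.03. Within that day the sign was the same for each gene and time apart from H2-Ab1 at 16 h. The MyD88-KO arrays of these times were all on slide 4 and the double-KO arrays all on slide 5. Genotype and slide therefore cannot be told apart in these differences.

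**Figure D2:**
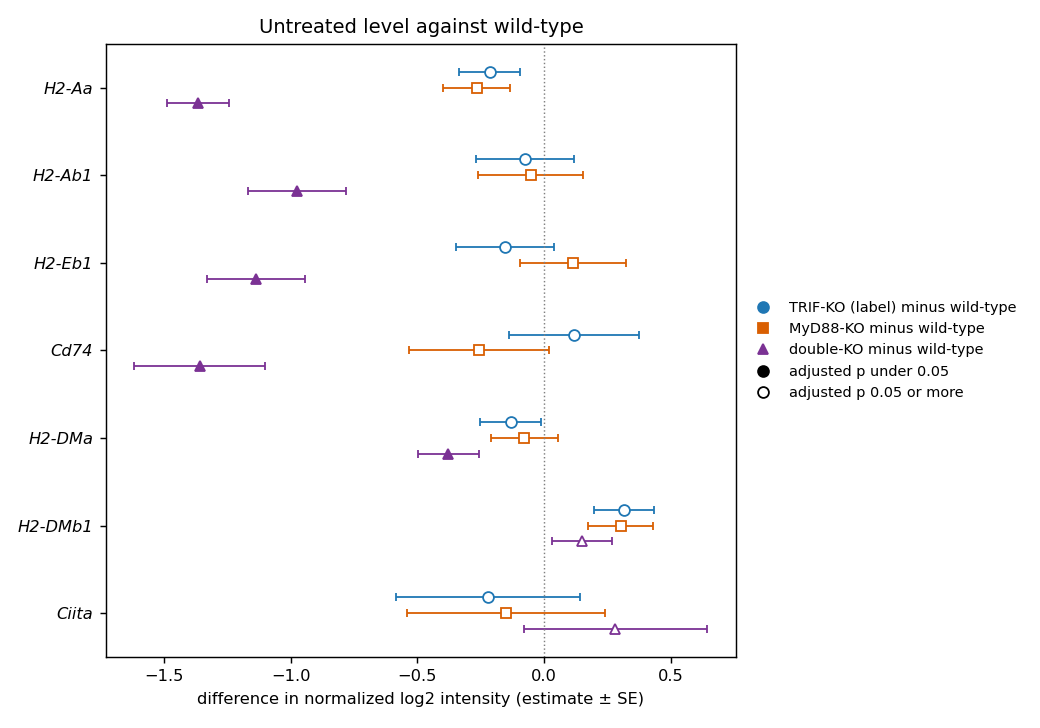
Difference in untreated level from wild-type (horizontal axis, normalized log2 intensity, estimate ± SE from limma) for the 7 genes in each of the 3 other genotypes. Filled symbols have an adjusted p under 0.05; all 5 are double-KO differences, from -0.38 for H2-DMa to -1.37 for H2-Aa.

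The chain genes and Cd74 had more mRNA at 16 h than at 1 h in untreated cells of each genotype. In double-KO cells the 16 h level exceeded the 1 h level by 7.21-fold for H2-Ab1, 7.04-fold for H2-Eb1, 6.75-fold for Cd74, 5.35-fold for Ciita and 5.28-fold for H2-Aa. In wild-type cells the same ratios were 2.14, 2.16, 2.98, 0.82 and 2.45. They were 2.75, 3.32, 3.27, 0.50 and 3.33 in MyD88-KO cells and 3.55, 2.58, 1.43, 2.33 and 2.74 in TRIF-KO-labelled cells. The change per doubling of time passed the test in double-KO cells for H2-Ab1 (0.69 ± 0.12 log2, SE, adjusted p = 0.0048), Ciita (0.62 ± 0.13, 0.012), Cd74 (0.69 ± 0.15, 0.017) and H2-Eb1 (0.64 ± 0.16, 0.027), which is 4 of 7 members rising where 2.52% of genes rose. H2-Aa missed it (0.56 ± 0.16, 0.054). In TRIF-KO-labelled cells H2-Ab1 (0.46 ± 0.12, 0.017) and Ciita (0.40 ± 0.13, 0.047) rose, where 9.36% of genes did; both calls were lost without the 16 h array, and that of Ciita also without the 2 or 8 h array. No member passed in wild-type cells (9.45% of genes in either direction) or MyD88-KO cells (5.91%). The slopes of double-KO and wild-type cells did not differ by the test in any member (0.0272% of genes called), with H2-Ab1 at -0.42 ± 0.17 for wild-type minus double-KO (adjusted p = 0.40). Without the 16 h array of double-KO cells none of the 4 calls in that genotype remained, and H2-Ab1 then had a slope of 0.39.

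Of the peptide-exchange genes, H2-DMa had a smaller early gap (-0.32, -0.49 and -0.44 for double-KO minus wild-type at 1, 2 and 4 h) and H2-DMb1 had none of that sign before 16 h. H2-DMb1, the beta chain of H2-DM, measured 13.83, 13.80, 13.45, 13.43 and 14.44 in untreated wild-type cells. In double-KO cells it measured 14.19, 13.84, 13.48, 14.00 and 14.18, which overlaps wild-type throughout (difference 0.15 ± 0.12, SE, 95% interval from -0.11 to 0.40, adjusted p = 0.39). H2-DMa, the alpha chain, spanned 11.29 to 12.05 in wild-type and 10.88 to 11.41 in double-KO cells. From 1 to 16 h the untreated double-KO level of H2-DMa moved by 0.06 and that of H2-DMb1 by -0.02 (log2), against 2.40 for H2-Aa. Ciita measured 8.41, 7.45, 8.42, 8.60 and 8.13 in wild-type cells and 7.30, 7.96, 8.10, 9.35 and 9.72 in double-KO cells. The double-KO value of Ciita was the highest of the 4 genotypes at 8 and 16 h and the lowest at 1 h, and the mean difference from wild-type was 0.28 ± 0.36 (adjusted p = 0.61). Over the 19 untreated samples in Cy3 Ciita correlated with H2-Aa at r = 0.31 and with H2-Ab1 at r = 0.46. Those samples share slides and culture times.

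LPS gave the chain genes 2 phases in wild-type and TRIF-KO-labelled cells, with more mRNA than in untreated cells at 2 and 4 h and, for most members, less at 16 h. The log2 ratio of LPS over untreated for H2-Aa was -0.33, 0.62, 0.77, 0.01 and -1.69 at 1, 2, 4, 8 and 16 h in wild-type cells. It was 0.03, 0.89, 0.97, 0.20 and -1.91 in TRIF-KO-labelled cells. Both courses were highest at 4 h (1.71-fold and 1.96-fold) and lowest at 16 h. H2-Eb1 had ratios of -0.08, 0.53, 0.46, -0.47 and -1.86 in wild-type and -0.09, 0.20, 0.37, -0.20 and -1.73 in TRIF-KO-labelled cells, with the same order of phases. In this late phase the untreated level of the gene was itself at its highest, while the LPS-treated level of H2-Eb1 in wild-type cells was 14.43 at 1 h and 13.76 at 16 h. The LPS-treated wild-type level of H2-Aa moved by -0.08 from 1 to 16 h, that of Cd74 by 0.11 and that of H2-Ab1 by 0.74 (log2). Their untreated levels rose by 1.29, 1.57 and 1.10 over the same hours.

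H2-Ab1 differed from its partner chain at 16 h. Its ratios were 0.06, 0.89, 1.01, 0.56 and -0.30 in wild-type and -0.03, 0.59, 0.93, 0.84 and 0.07 in TRIF-KO-labelled cells, so that the 16 h values stayed near 0 where those of H2-Aa were below -1.6. Cd74 had ratios of 0.51, 0.97, 0.33 and -0.96 in wild-type cells at 1, 4, 8 and 16 h. In TRIF-KO-labelled cells they were -0.13, 0.33, 0.93, 0.51 and -0.79 from 1 to 16 h. Cd74 thus had its highest ratio at 4 h and its lowest at 16 h in both genotypes. The H2-DM genes were below untreated earlier: H2-DMa was at -0.15, -0.31, 0.00, -1.05 and -1.01 in wild-type and 0.06, 0.18, 0.03, -1.25 and -1.87 in TRIF-KO-labelled cells. H2-DMb1 was at -0.03, 0.30, 0.56, -0.75 and -0.81 and at -0.36, -0.08, 0.29, -0.67 and -1.74. Both were below untreated at 8 h in these genotypes, when the H2-Aa ratio was 0.01 and 0.20.

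Ciita, the coactivator, was below untreated on 4 of 5 arrays in each of these genotypes. Its ratios were -0.60, 0.09, -0.36, -1.10 and -0.92 in wild-type and -0.55, 0.01, -0.08, -0.76 and -1.27 in TRIF-KO-labelled cells. Only the value at 2 h was above 0.

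**Figure D3:**
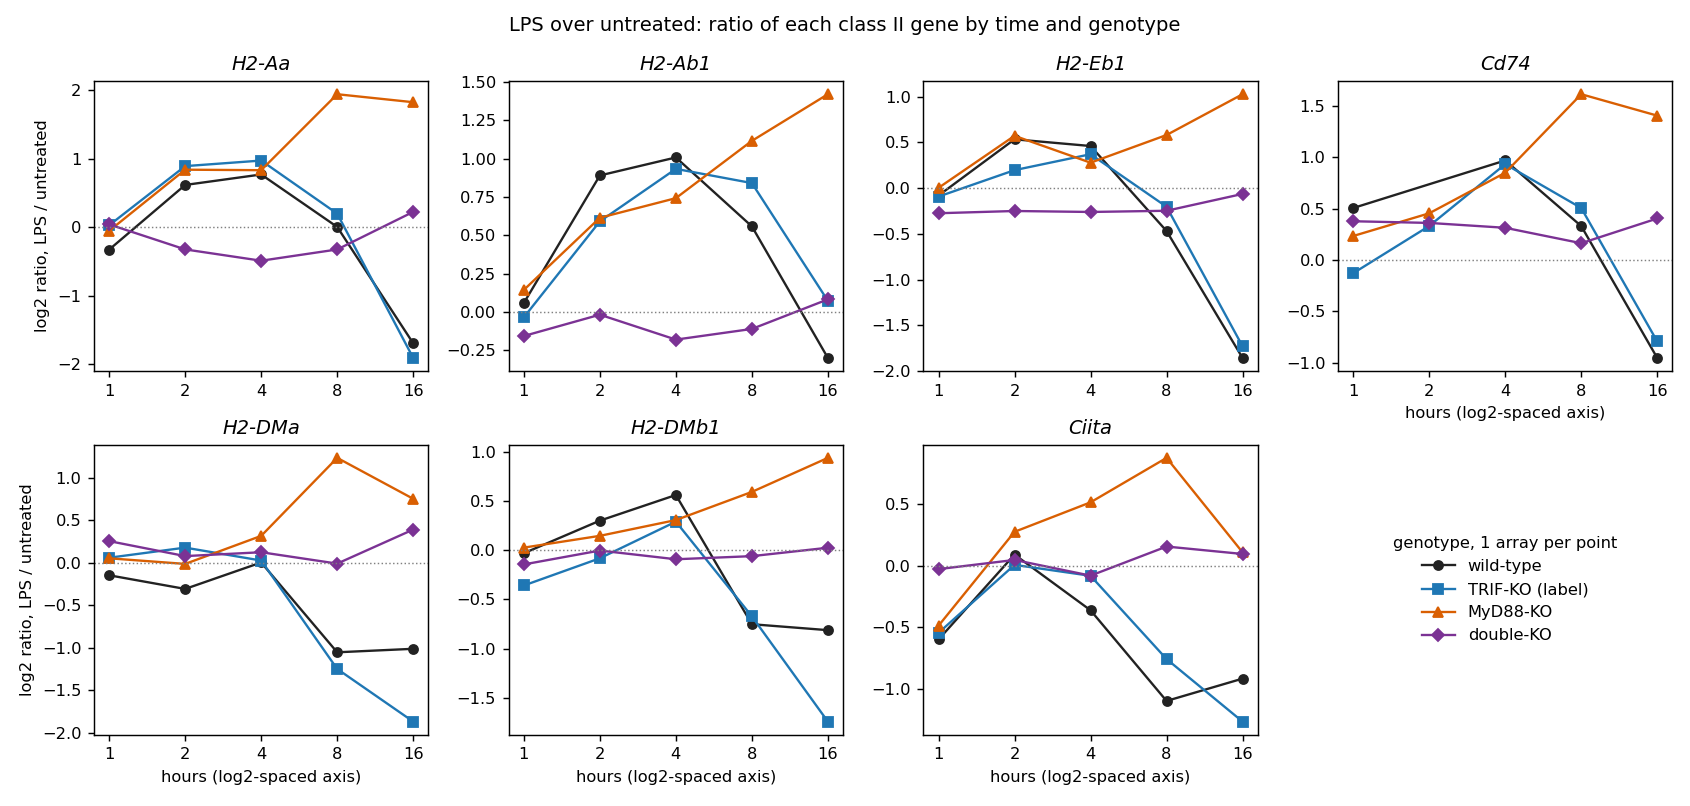
Log2 ratio of LPS-treated over untreated cells (vertical axis, a separate scale in each panel) against hours of LPS for the 7 genes, 1 array per point and 1 line per genotype; the dotted line marks no difference. For H2-Aa the wild-type and TRIF-KO-labelled courses end at -1.69 and -1.91, and MyD88-KO ends at 1.83. Wild-type and TRIF-KO-labelled end further apart for H2-DMa (-1.01 and -1.87) and H2-DMb1 (-0.81 and -1.74). Double-KO stays between -0.49 and 0.40 for all 7 genes.

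In MyD88-KO macrophages H2-Aa, H2-Ab1 and Cd74 were above untreated at 2 and 4 h and further above at 8 and 16 h. H2-Aa had ratios of -0.05, 0.84, 0.83, 1.94 and 1.83, so that LPS-treated cells held 3.84-fold the untreated level at 8 h. H2-Ab1 had 0.14, 0.61, 0.74, 1.12 and 1.42. Cd74 had 0.23, 0.45, 0.85, 1.62 and 1.41. Apart from H2-Aa at 1 h, these 3 genes were above 0 on each array, and none had its lowest value at 16 h. H2-Eb1 was at 0.00, 0.57, 0.28, 0.58 and 1.03, and H2-DMa at 0.05, -0.01, 0.32, 1.24 and 0.75. H2-DMb1 was at 0.03, 0.15, 0.31, 0.59 and 0.94, and Ciita at -0.49, 0.28, 0.52, 0.88 and 0.11. At 8 h all 7 genes were above untreated. Each of these values comes from a single array. For wild-type minus MyD88-KO the test called 0 of 7 members, both for the mean ratio and for its change with time.

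The LPS-treated MyD88-KO cells of 16 h held the highest level of each chain gene and of Cd74. H2-Aa measured 13.51 there, against 10.09 in wild-type, 9.79 in TRIF-KO-labelled and 11.31 in double-KO cells treated with LPS for the same time. That is 10.7-fold the wild-type level. For H2-Eb1 the corresponding ratio was 9.32-fold (16.98 against 13.76), for Cd74 3.99-fold (16.65 against 14.65) and for H2-Ab1 3.61-fold (17.32 against 15.47). Each of these values comes from 1 array, with no replicate. LPS-treated double-KO cells were below LPS-treated wild-type cells at 1 h for H2-Aa (8.73 against 10.16) and above them at 16 h (11.31 against 10.09). The wild-type level was about the same at both times.

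**Figure D4:**
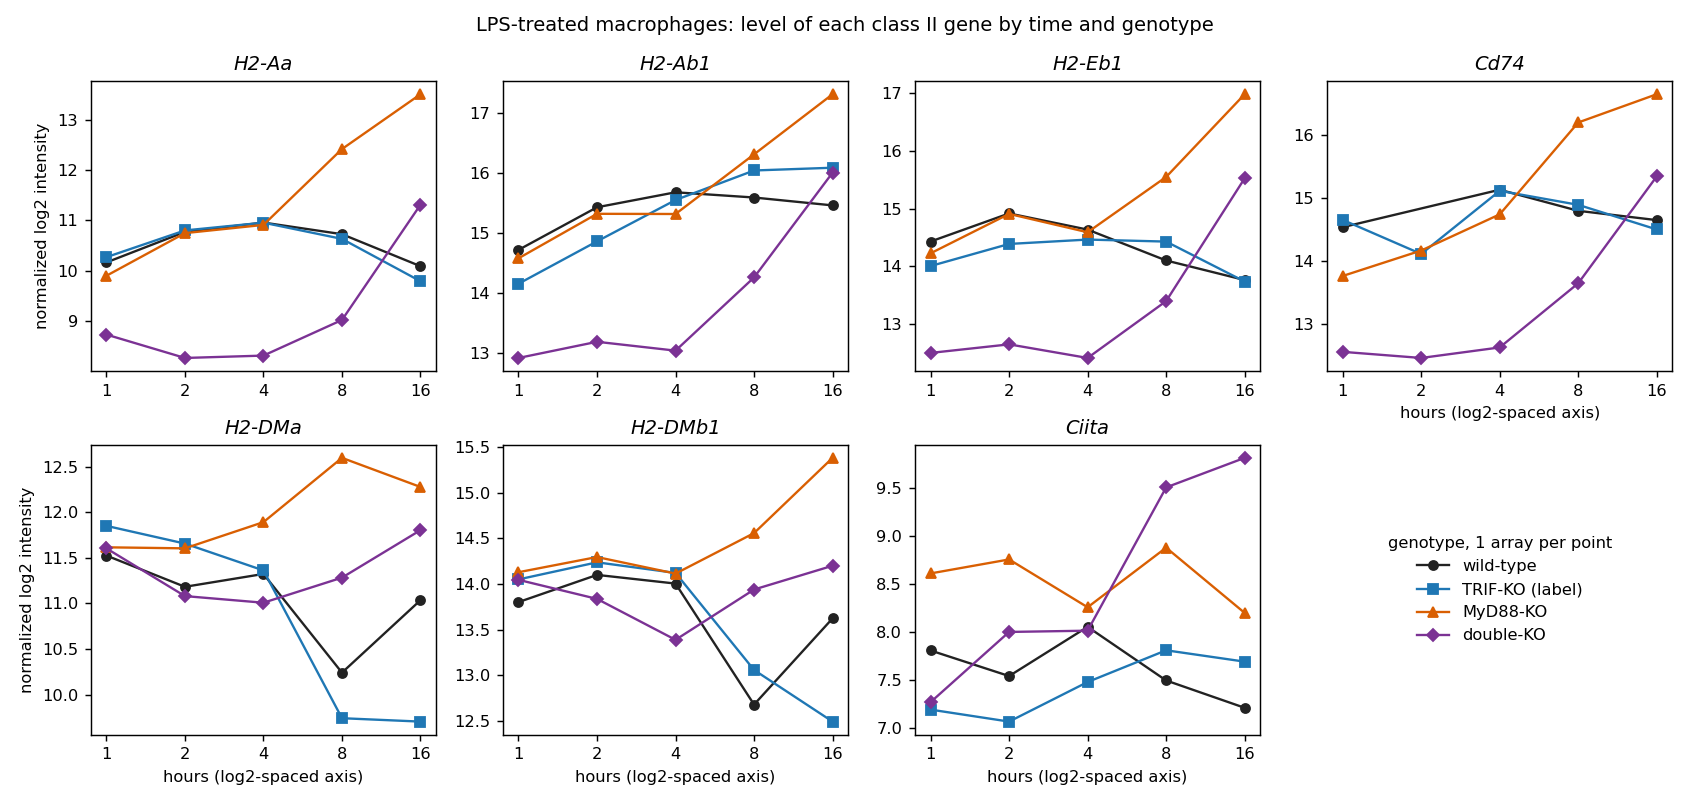
Normalized log2 intensity of the LPS-treated channel (vertical axis, a separate scale in each panel) against hours of LPS for the 7 genes, 1 array per point and 1 line per genotype. At 16 h MyD88-KO is the highest line for H2-Aa (13.51), H2-Ab1 (17.32), H2-Eb1 (16.98), Cd74 (16.65), H2-DMa (12.28) and H2-DMb1 (15.38), and double-KO for Ciita (9.81).

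Double-KO macrophages showed little difference between LPS-treated and untreated cells. H2-Aa had ratios of 0.04, -0.32, -0.49, -0.32 and 0.23, and H2-Ab1 of -0.16, -0.02, -0.18, -0.11 and 0.08. H2-Eb1 was below 0 on 5 of 5 arrays (-0.28 to -0.06) and Cd74 above 0 on 5 of 5 (0.16 to 0.40). LPS was in Cy5 on all double-KO arrays, so an effect of dye and one of LPS cannot be told apart in these small values. Ciita lay between -0.08 and 0.16. The H2-Aa level was 5.28-fold higher at 16 h than at 1 h without LPS and 5.99-fold with it.

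Averaged over time, LPS raised H2-Ab1 (0.81 ± 0.17 log2, SE, n = 5, adjusted p = 0.0032), Cd74 (0.91 ± 0.24, 0.011) and H2-Aa (1.08 ± 0.37, 0.034) in MyD88-KO cells, which are 3 of 7 members higher where 16.7% of all genes were. These are 1.75-fold, 1.88-fold and 2.11-fold changes. In TRIF-KO-labelled cells H2-Ab1 rose (0.48 ± 0.17, 0.044) and Ciita fell (-0.53 ± 0.17, 0.030), 2 of 7 where 29.0% of genes were called. When 1 array was left out, H2-Ab1 lost this call in 4 of 5 fits (all but that without 16 h) and Ciita in 2 of 5 (without 8 or 16 h), and both lost it without the time block (adjusted p = 0.080 and 0.057). In wild-type cells Ciita fell (-0.58 ± 0.17, 0.016), 1 of 7 where 36.3% of genes were called and a call lost without the 4 or 8 h array (adjusted p = 0.054 and 0.12), and H2-Ab1 had 0.44 ± 0.17 with an adjusted p of 0.052. In double-KO cells limma called no member, at an adjusted p or at an unadjusted p under 0.05, with 0.327% of genes called. All genotypes share 1 estimate of the spread in this fit, so a small steady shift in double-KO cells could go uncalled. For H2-Eb1 and Cd74 the fitted SE there was 0.27 and 0.24, while their double-KO ratios had an SD of 0.09 and 0.10. A mean over time hides the 2 phases of wild-type and TRIF-KO-labelled cells, in which H2-Aa averaged -0.12 ± 0.37 and 0.04 ± 0.37. Without its 16 h array the wild-type mean of H2-Aa was 0.20 and that of H2-Eb1 0.05 in place of -0.28. When a dye term was fitted, for which there is 1 swapped array, no member was called in any genotype, and the MyD88-KO means were 0.66 for H2-Ab1, 0.70 for Cd74 and 0.81 for H2-Aa. Without the MyD88-KO array of 16 h, H2-Ab1 kept its call in that genotype, whereas H2-Aa averaged 0.63 (adjusted p = 0.24) and Cd74 0.62 (0.085). Both also lost it without the 8 h array, at 0.87 (0.16) and 0.76 (0.070).

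**Figure D5:**
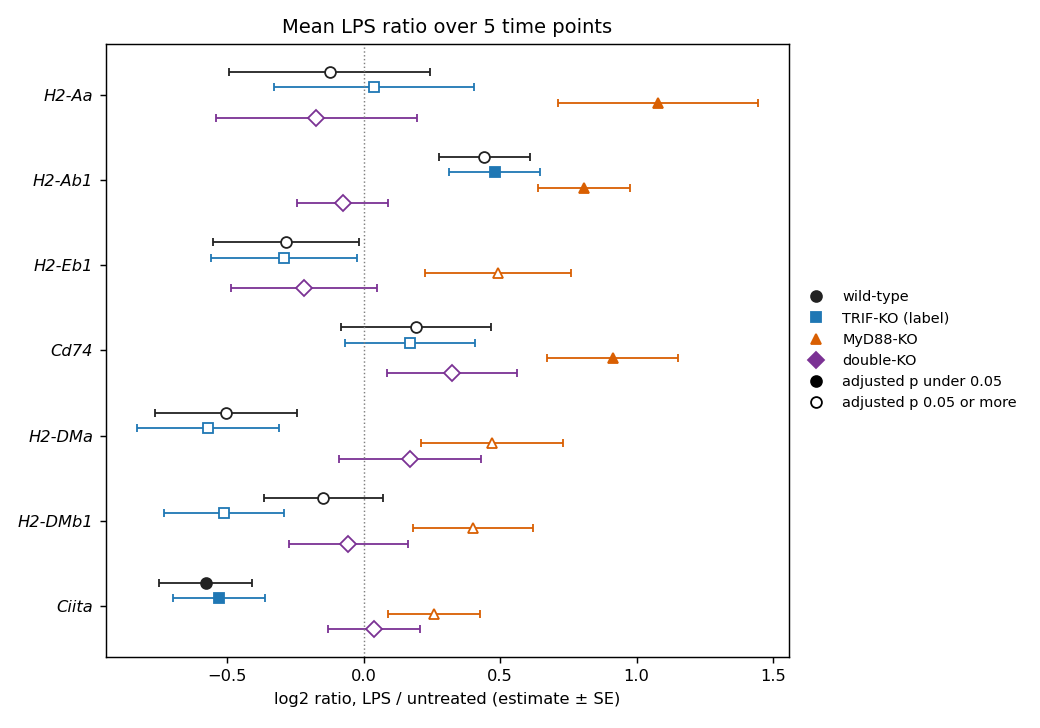
Mean log2 ratio of LPS over untreated over 5 time points (horizontal axis, estimate ± SE from limma) for the 7 genes in the 4 genotypes; filled symbols have an adjusted p under 0.05. The filled symbols are H2-Aa, H2-Ab1 and Cd74 in MyD88-KO, H2-Ab1 and Ciita in TRIF-KO-labelled and Ciita in wild-type cells.

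The differences between genotypes were tested in the same fit. MyD88-KO minus double-KO passed for H2-Ab1 alone (0.88 ± 0.24, SE, adjusted p = 0.038, higher at 5 of 5 times), 1 of 7 members where 9.84% of genes were called. H2-Aa had 1.25 ± 0.52 (adjusted p = 0.12). The H2-Ab1 call was lost in 7 of 10 fits that left out 1 array, without the time block (adjusted p = 0.13) and with only these 2 groups in the fit (0.18). No member was called for wild-type minus double-KO (12.0% of genes called) or TRIF-KO minus double-KO (6.58%). For wild-type minus MyD88-KO, wild-type minus TRIF-KO and TRIF-KO minus MyD88-KO no gene of the array was called at all (0%). For wild-type minus MyD88-KO limma gave an unadjusted p under 0.05 for 3 of 7 members, where 14.5% of all genes had one, and for TRIF-KO minus MyD88-KO for 4 of 7 (H2-DMa, H2-DMb1, Cd74 and Ciita), where 18.6% had. For wild-type minus MyD88-KO the values included H2-Aa at -1.20 ± 0.52 (adjusted p = 0.32, lower at 5 of 5 times) and Ciita at -0.84 ± 0.24 (0.19, 5 of 5). Wild-type minus TRIF-KO for H2-Aa was -0.16 with a 95% interval from -1.27 to 0.95.

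The change of the ratio with time separated TRIF-KO-labelled from MyD88-KO cells in 1 gene. H2-DMa fell by 0.53 per doubling of time in TRIF-KO-labelled cells (SE 0.11, adjusted p = 0.0089), where 3.75% of genes had a falling slope called, and was at 0.27 ± 0.11 in MyD88-KO cells (adjusted p = 0.14). The difference of these slopes was -0.79 ± 0.15 (adjusted p = 0.013), 1 of 7 members where 3.86% of genes were called. It was -0.94 ± 0.31 for H2-Aa (0.12) and -0.56 ± 0.18 for H2-DMb1 (0.10). Slope differences were added after the values had been seen. The H2-DMa call was lost without the TRIF-KO-labelled array of 16 h (-0.67, adjusted p = 0.12), with only the 2 groups in the fit (0.12) and with scan day as a block (-0.69, 0.30). A linear slope does not describe a course with 2 phases, and no other slope of the ratio was called for a member (wild-type cells had 5.50% of genes called, MyD88-KO cells 10.3% and double-KO cells 0%).

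Neutrophil markers moved with genotype beside these results. In untreated MyD88-KO cells 7 of 9 were higher than in wild-type, where 10.0% of all genes were called in either direction. Ltf and Camp were among them, and the median difference was 1.06 over the list. Ly6g was not, with a mean level of 8.85 ± 0.95 in MyD88-KO (SD, n = 4) and 10.29 ± 0.37 in wild-type cells (n = 5). In untreated double-KO cells 2 of 9 were higher and 2 lower than in wild-type, where 26.1% of all genes were called in either direction. Camp was at 0.72 ± 0.10 and Ly6g at -2.59 ± 0.46 (SE), and the median was 0.13 over the list. Of 9 measured dendritic-cell markers, 3 were higher and 2 lower in untreated double-KO cells, beside the same 26.1% of all genes. Cd24a was at 2.25 ± 0.23 and Zbtb46, a factor of classical dendritic cells, at -0.94 ± 0.19 (SE). Zbtb46 was above background on 3 of 5 double-KO arrays. Xcr1 was above background on no array. Their part in the class II values was not tested.

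Of 17 genes that act on class II promoters or on the interferon gamma signal to them, 8 rose and 2 fell with LPS in MyD88-KO cells, where 35.3% of all genes were called in either direction. In wild-type cells 7 rose and 2 fell (36.3% of all genes called), and in TRIF-KO-labelled cells 5 rose and 2 fell (29.0%). Irf1, a factor at the interferon gamma-responsive promoter of Ciita, rose by 3.14 ± 0.41 in MyD88-KO, 1.75 ± 0.41 in wild-type and 1.46 ± 0.41 in TRIF-KO-labelled cells. Jak2, a kinase of the interferon gamma receptor, rose by 1.94 ± 0.29, 2.15 ± 0.29 and 1.50 ± 0.29 in the same order. In MyD88-KO cells Socs1, an inhibitor of that receptor's kinases, rose by 1.89 ± 0.34, and in wild-type cells by 1.17 ± 0.34. The median over the list was 0.20, 0.29 and 0.19, beside 0.00, -0.01 and -0.02 over all genes. In untreated double-KO cells 3 of these genes were higher than in wild-type and 6 lower (26.1% of all genes in either direction), with Socs1 at -2.51 ± 0.38, Nfya, a subunit of NF-Y, at -0.76 ± 0.13 and Irf4 at 1.08 ± 0.15. In untreated MyD88-KO cells Irf1 (-1.14 ± 0.29) and Jak2 (-0.45 ± 0.12) were lower than in wild-type and Irf4 (0.53 ± 0.16) higher, beside 10.0% of all genes called. The Irf1 ratio in MyD88-KO cells is thus taken over a lower untreated level. The list was described by counts only and was chosen with earlier results of these data known, as were those that follow.

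Of 9 genes of endosomal proteases and the thiol reductase, which prepare the groove and the peptides, 1 rose and 3 fell with LPS in wild-type cells, 1 rose and 4 fell in TRIF-KO-labelled cells and 1 rose and 3 fell in MyD88-KO cells. With 36.3%, 29.0% and 35.3% of all genes called in these genotypes, the counts are not far from the background. Lgmn, an endosomal asparaginyl protease, fell by 0.73, 1.25 and 0.71 in that order, and Ctsz rose by 0.66 ± 0.13, 0.43 ± 0.13 and 0.71 ± 0.13. Ifi30, the thiol reductase of endosomes, fell by 0.54 ± 0.20 in wild-type and by 0.63 ± 0.20 in TRIF-KO-labelled cells. Among 3 further class II chains that were measured, H2-Oa, the alpha chain of the H2-DM inhibitor H2-O, rose in MyD88-KO cells (1.43 ± 0.24, adjusted p = 0.0011), and its response there differed from that of double-KO cells (1.38 ± 0.33, 0.028). Its partner H2-Ob rose in MyD88-KO (0.45 ± 0.09), TRIF-KO-labelled (0.36 ± 0.09) and wild-type cells (0.29 ± 0.09), and H2-Eb2 fell in the same 3 (-0.43 ± 0.15, -0.49 ± 0.15 and -0.46 ± 0.15). Without LPS, H2-Eb2 was higher in double-KO than in wild-type cells (1.01 ± 0.29, limma, adjusted p = 0.021). H2-Oa was lower there (-0.51 ± 0.12, 0.0076), where 26.1% of all genes were called in either direction. Of the 4 measured genes that control the surface life of class II or bind it, Marchf1, a ubiquitin ligase for class II, rose in wild-type cells (0.61 ± 0.22). Marchf8, its relative, fell in MyD88-KO (-0.35 ± 0.09), wild-type (-0.42 ± 0.09) and TRIF-KO-labelled cells (-0.58 ± 0.09). Cd83, which opposes Marchf1 in dendritic cells, rose in MyD88-KO cells (2.62 ± 0.62). Lag3 rose there too (1.01 ± 0.21). Its untreated level was above background on 2 of 4 MyD88-KO arrays and on 0 arrays of each other genotype.

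Of 13 genes of the class I pathway, 11 rose and none fell in MyD88-KO cells, 4 rose and 1 fell in wild-type cells and none rose and 2 fell in TRIF-KO-labelled cells. Of all genes, 16.7% rose in MyD88-KO cells and 35.3% were called there in either direction. The wild-type and TRIF-KO-labelled counts in either direction are near or below the 36.3% and 29.0% of all genes called there. In untreated double-KO cells 9 were lower than in wild-type, where 10.6% of all genes were. Untreated MyD88-KO cells were also below wild-type in Nlrc5 (-0.76 ± 0.15), B2m (-0.76 ± 0.21), Psmb10 (-0.73 ± 0.20) and Calr (-0.63 ± 0.11). There 10.0% of all genes were called in either direction. Nlrc5, the class I counterpart of Ciita, rose by 1.52 ± 0.30 in MyD88-KO cells and was lower by 1.85 in untreated double-KO cells (SE 0.14, adjusted p = 4.2e-07), against Ciita values of 0.26 ± 0.17 and 0.28 ± 0.36.

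The members moved together to different degrees. Across the 20 ratios H2-Aa correlated with H2-Eb1 at r = 0.93 and with Cd74 at 0.92 (19 arrays), H2-DMa with H2-DMb1 at 0.87, H2-DMa with Ciita at 0.86 and H2-Ab1 with H2-DMa at 0.28. Across the 19 untreated levels the 3 chain genes correlated with each other at 0.96 to 0.97, and H2-Aa with H2-DMb1 at 0.38. The arrays share genotypes, times and slides, so these values describe the courses only. The non-member genes nearest to the mean ratio of H2-Aa, H2-Ab1 and H2-Eb1 were Phlpp1 (r = 0.90), AI662270 (0.90), Ccl12 (0.90), 9930105H17Rik (0.90) and the unnamed probe A_55_P2120706 (0.89). For untreated levels they were Fxyd2 (0.94), Slamf8 (0.92), C5ar1 (0.92), Cycs (0.92) and Igf2bp2 (0.91). The nearest to Ciita were Pgghg (0.91), Smok3b (0.90), ENSMUST00000100186 (0.90), Cerkl (0.89) and Gtpbp1 (0.89) for ratios, and Agtpbp1 (0.93), Mab21l2 (0.91), Pcdhb12 (0.91), A_55_P1954604 (0.90) and Bhlha9 (0.90) for untreated levels. H2-DMa ranked 22 among all genes by the likeness of its ratio to that of Ciita, H2-DMb1 124 and H2-Aa 367.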

How the data were processed

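Gene expression was measured on 20 two-colour Agilent arrays. The deposited scanner files, from Feature Extraction 10.10.1.1 with mm9 coordinates per the file headers, hold mean and background intensities of both channels and a log10 ratio. The deposited series table gave the same log10 ratio to within 5e-10. Cy5 held the LPS sample on 19 arrays. The 2 h MyD88-KO array was the swapped one, and its ratio was turned.

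In limma 3.58.1 (R 4.3.3, with data.table at version 1.17.8), intensities were corrected with normexp (offset 50) and normalized by loess within arrays; levels were then made comparable with Aquantile. Probes well above background in 1 channel on at least 3 arrays were kept (28388), and the brightest kept probe stood for a gene. On each array 52.8% to 69.6% of spots were above background, and the number of arrays limits the precision. Mean ratios and untreated levels (19 arrays with untreated RNA in Cy3) were fitted by genotype with time point as a block, and slopes by genotype and log2 hours without it. P-values were adjusted over all genes (Benjamini-Hochberg, threshold 0.05); the fits were tested on simulated data. The replicate numbers of the labels are the time points. Same-numbered samples deviated together in untreated levels (correlations of 0.13 to 0.81) but not in all ratios (-0.20 to 0.83).

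The members are named in each comparison, at most 4 genes per list (those called with the largest values), and the 5 nearest patterns by Pearson correlation. The members and lists were chosen with earlier results of these data known. Alternatives covered background, normalization, filter, probe choice, dye, slide, scan day, time block, samples fitted and single arrays left out.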

Additional observations from a re-analysis of the deposited data

Results flagged for a closer look

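In 56 groups of 4 or 5 arrays (a member's ratios or untreated levels in 1 genotype), 3 single values stood apart from the others of their group, all of H2-Eb1 at 16 h; chance alone sets about 1 group in 20 apart. The untreated wild-type level of H2-Eb1 at 16 h was 15.62, and the next value was 14.57. Its ratio in TRIF-KO-labelled cells at 16 h was -1.73, and the next was -0.20. Its ratio in double-KO cells at 16 h was -0.06, and the next was -0.25. These arrays are different time points, not repeats of one condition.

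Between genotypes, the mean LPS response of H2-Ab1 differed by 0.88 for MyD88-KO minus double-KO (limma, adjusted p = 0.038). The slope of the H2-DMa response differed by -0.79 for TRIF-KO minus MyD88-KO (adjusted p = 0.013). The H2-Eb1 ratios were above 0 on each MyD88-KO array (mean 0.49) and below 0 on each double-KO array (mean -0.22), and the test of the difference itself gave 0.71 ± 0.38 (SE, adjusted p = 0.22).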

How the results depend on the processing

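No difference of a member that was called, as reported or under an alternative, turned its direction (504 values). Of 3983 values called in neither, 332 had the opposite sign, so the direction of a difference that did not pass is not settled. The counts below are of members called out of 7; where the fixed slide block or the dye term ended a call, both estimates rest on few arrays, since slides mostly hold 1 or 2 genotypes and 1 array was swapped, and the cause was not tested. For the MyD88-KO response the count was 3, and 0 with a dye term and 1 with scale normalization. For MyD88-KO minus double-KO it was 1, and 0 with no replicate block, with only the 2 groups, and with slide as a fixed or a random block, and 2 with scan day as a block. The TRIF-KO-labelled response had 2, and 0 with a dye term, no replicate block or a fixed slide block, and 1 with no filter, scale normalization, scan day or a random slide block. TRIF-KO minus double-KO had 0, and 1 with scale normalization. The TRIF-KO-labelled slope had 1, and 0 with scale normalization or a fixed slide block. The wild-type response had 1, and 0 with a dye term or a fixed slide block and 2 with the mean of a gene's probes. Untreated double-KO minus wild-type had 5, and 0 with no replicate block or a fixed slide block, 1 with scan day and 3 with a random slide block. The untreated TRIF-KO-labelled slope had 2, and 0 with no normalization between arrays or a fixed slide block, and 1 with no filter, the scanner software's processed signal or a random slide block. With single arrays left out the counts ranged from 1 to 3 for the MyD88-KO response, 0 to 1 for MyD88-KO minus double-KO, 0 to 1 for TRIF-KO-labelled, 0 to 2 for wild-type, 0 to 2 for the TRIF-KO-labelled slope, 0 to 1 for the wild-type slope, 4 to 5 for untreated double-KO minus wild-type, 0 to 2 for the untreated TRIF-KO-labelled slope and 0 to 5 for the untreated double-KO slope (0 without its 16 h array). They ranged from 0 to 1 for wild-type minus MyD88-KO, TRIF-KO minus MyD88-KO, wild-type minus double-KO and untreated MyD88-KO minus wild-type. With 1 array per genotype and time, an effect at a single time could not be tested.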
